A study of Homo sapiens with 4 samples.

Results

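MYC and 9 SOX and KLF transcription factor genes were followed through the RNA and m6A data of A549 cells. The genes were MYC, SOX2, SOX4, SOX9, KLF3, KLF4, KLF5, KLF6, KLF9 and KLF10. They were chosen by symbol, as genes proposed to have short-lived and m6A-rich transcripts, and are 10 of the 28283 genes in the deposited expression table. A549 is a human lung adenocarcinoma cell line. The control cells carried the PLKO_1 vector (shNC), and the knockdown cells stably expressed, from a lentiviral vector, 1 shRNA against the m6A reader YTHDF2 (shY2-2), with puromycin used to select infected cells. For either kind of cell the series has 1 input library, made from poly(A) RNA in pieces, and 1 IP library, made from the pieces that an antibody to m6A pulled down, so 4 libraries in all. With 1 library per group, no difference between shNC and shY2-2 has a replicate check, no test was run, and every comparison describes these libraries.

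N6-methyladenosine (m6A) is a methyl mark placed on adenosines of mRNA, most often within the sequence context GGAC and most densely near stop codons and in 3′-UTRs. YTHDF2 binds the mark and recruits deadenylases, which shortens the life of the bound mRNA. MYC, a basic helix-loop-helix factor that pairs with MAX and drives growth genes, is a textbook example of an mRNA with rapid turnover. SOX factors bind DNA through an HMG box and set cell lineage, and KLF factors bind GC-rich promoters through C2H2 zinc fingers and control proliferation and differentiation of epithelia.

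The deposited FPKM values (fragments per kb of exon, scaled to the mapped reads of the library) were calculated by the authors from the input libraries, and how many fragments lie behind a value is unknown. YTHDF2 itself had an FPKM of 3.56 in shNC and 1.02 in shY2-2. The 5 epithelial markers examined were detected in both libraries, from EPCAM (FPKM 2.02 and 1.20) to KRT8 (523 and 322), and all 5 were lower in shY2-2. The largest relative shifts were those of KRT19 (25.9 and 12.9) and CDH1 (9.99 and 5.28). Of all genes with an FPKM of 1 or more in either input library, 49.7% were lower in shY2-2. The surfactant gene SFTPC and the alveolar protease gene NAPSA, which mark differentiated lung epithelium, were at or below an FPKM of 0.252 in both libraries. Of the 6 markers of other cell types, PTPRC, CD3E, DCN, PECAM1 and VWF lay between 0 and 0.259, and COL1A1 had 0.834 in shNC and 1.64 in shY2-2. The part of these shifts in the values of the 10 genes was not tested.

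Sequences under m6A peaks are shown first, since the sequence under a peak is what the antibody could have recognised. The authors called a peak where the IP library exceeded the input library of the same cells. Peaks of the shNC and shY2-2 lists that share exonic sequence were found in MYC, SOX4, KLF4, KLF5 and KLF10. Sequence is printed for SOX4, KLF4 and KLF5, as 25 nt of the transcript on GRCh38 with the motif GGAC in capitals, at some of the GGAC matches of the canonical transcript within the shared part of a peak.
SOX4 3′-UTR, chr6:21596333-21596357, + strand: acgagcttccGGACttgtctgcacc
SOX4 3′-UTR, chr6:21596560-21596584, + strand: gggaacgccgGGACtgagagactcc
SOX4 3′-UTR, chr6:21598351-21598375, + strand: acaggcactaGGACgtctgcctttt
KLF4 5′-UTR, chr9:107489181-107489205, - strand: gggctgccgaGGACcttctgggccc
KLF5 5′-UTR, chr13:73059113-73059137, + strand: gccgcccggaGGACgttggcgttta

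The first pair of SOX4 sites read GGACT, the most typical form of the m6A motif, and lie 388 and 615 nt past the first base of the stop codon. The shY2-2 peak over the site at 388 nt had an FDR of 0.239. The KLF4 and KLF5 sites lie 5′ of the coding sequence. The shared parts of the SOX4 coding peak, the KLF4 3′-UTR peak and the KLF5 3′-UTR peak held no GGAC on the canonical transcript.

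A second set of sites comes from peaks that met no peak of the other list. These are shown because in SOX2, SOX9, KLF3 and KLF6 both lists held a peak of the gene, but at different places. Most of the peaks they come from are weak calls. Only the KLF3 3′-UTR peak had an FDR of at most 0.05 (8.91e-05), and the rest lay between 0.10 (KLF6) and 0.388 (SOX2 5′-UTR).
SOX2 3′-UTR, shNC list, chr3:181713899-181713923, + strand: ctgaaatttaGGACagttgcaaacg
SOX2 3′-UTR, shNC list, chr3:181713940-181713964, + strand: attcaaatttGGACattttaattgt
SOX2 5′-UTR, shY2-2 list, chr3:181712019-181712043, + strand: tttaagactaGGACtgagagaaaga
SOX9 3′-UTR, shNC list, chr17:72124663-72124687, + strand: acgagaaactGGACtttttaaaccc
SOX9 3′-UTR, shNC list, chr17:72124746-72124770, + strand: ctgcctgtttGGACtttgtaattat
KLF3 3′-UTR, shNC list, chr4:38699042-38699066, + strand: aaagttgtagGGACtgtgcacctaa
KLF3 coding, shY2-2 list, chr4:38697184-38697208, + strand: tccagtgcccGGACtgtgaccgcag
KLF6 coding, shY2-2 list, chr10:3781770-3781794, - strand: gtgcgcagcgGGACttcggggaagc

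The sites of SOX9, KLF3 and KLF6 and the 5′-UTR site of SOX2 read GGACT, and both 3′-UTR sites of SOX2 do not. Peaks of KLF4, KLF9 and KLF10 found in 1 list also held GGAC, not printed here. Some of those in KLF9 and that in KLF10 were not GGACT. The shY2-2 peaks of SOX9 and the shNC peak of KLF6 held no GGAC. A motif match describes the sequence and is not a methylated site. Among member peaks at least as long as a central window of 101 nt, GGAC lay in that window in 7 of 18 in the shNC list and 4 of 15 in the shY2-2 list, and the shares over all peaks of that length were 33.3% and 33.2%. GGAC was searched on the strand of the transcript only.

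Little separated the input libraries for most of the genes. KLF10, KLF5 and MYC were the 3 most abundant in either library, and SOX2 and KLF9 were the lowest pair in either. Genes were compared where either input library had an FPKM of 1 or more, which kept all 10 and 12268 in all. None of the 10 had a log2 ratio past 1 in size, which 3.12% of the 12268 had. The log2 ratio is log2((FPKM shY2-2 + 1)/(FPKM shNC + 1)), where the added 1 understates the change of low genes. Of the 12268, 0.986% lay above 1 and 2.14% below -1. The median log2 ratio was 0.0027 for the 10 genes and 0.0020 for the 12268, with 5 members above 0 and 5 below, where 49.7% of all genes were below 0.

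**Figure D1:**
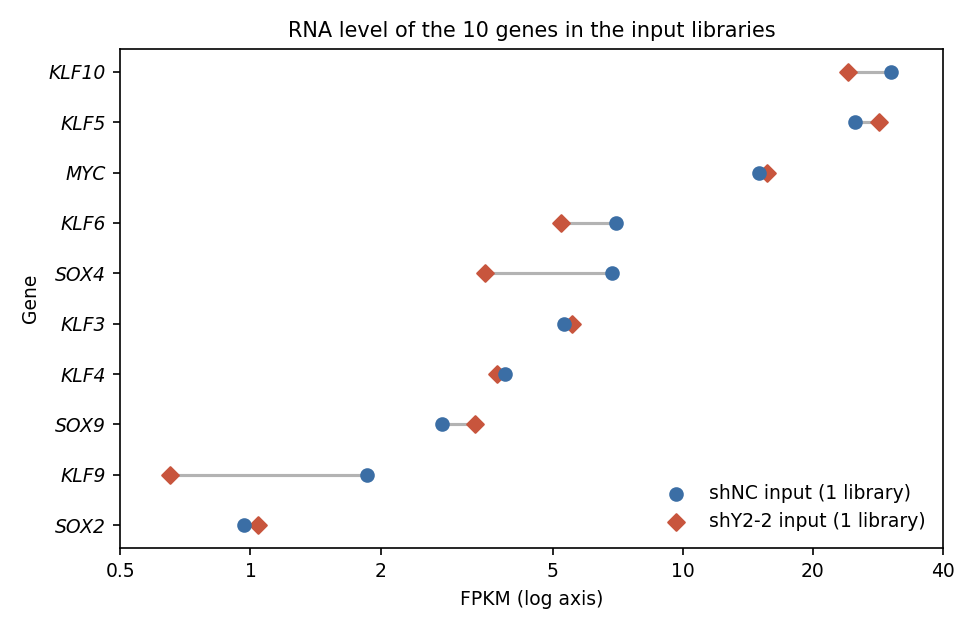
FPKM of each gene in the shNC input library (circles) and the shY2-2 input library (diamonds), 1 library each, on a log axis. KLF9 (1.86 and 0.652) and SOX4 (6.86 and 3.49) have the widest gaps, and MYC, KLF3, KLF4 and SOX2 have nearly coincident points.

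MYC (ENSG00000136997, GRCh38 chromosome 8 from 127735434 to 127741434, + strand) measured 15.0 FPKM in shNC and 15.7 in shY2-2. This is a log2 ratio of 0.06, and 87.4% of the genes compared lay at least as far from 0. MYC was thus among the genes whose level differed least between the libraries.

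Of the SOX genes, SOX4 showed the lowest log2 ratio of all 10. SOX4 (ENSG00000124766, chromosome 6, 21592768 to 21598619, + strand), a SoxC factor known as a target of TGF-β signalling, had an FPKM of 6.86 in shNC and 3.49 in shY2-2. Its log2 ratio of -0.81 was at percentile 4.14 of the 12268 genes. SOX9 (ENSG00000125398, chromosome 17, 72121020 to 72126420, + strand), a factor of distal lung progenitors and of cartilage, had 2.77 and 3.32, a log2 ratio of 0.20. SOX2 (ENSG00000181449, chromosome 3, 181711924 to 181714436, + strand), a pluripotency factor that also marks the airway lineage, was near the limit of the filter, with 0.965 and 1.04.

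The KLF genes lay on either side of 0. KLF5 (ENSG00000102554, chromosome 13, 73054976 to 73077542, + strand), which supports proliferation of epithelial progenitors, had an FPKM of 25.1 in shNC and 28.5 in shY2-2, a log2 ratio of 0.18. KLF10 (ENSG00000155090, chromosome 8, 102648779 to 102655902, - strand), an early gene induced by TGF-β, had 30.3 and 24.1, a log2 ratio of -0.32. These values exchanged the first place in abundance between KLF10 in shNC and KLF5 in shY2-2. KLF6 (ENSG00000067082, chromosome 10, 3775996 to 3785281, - strand), an injury-induced factor with tumour suppressor activity, had 6.99 and 5.23, a log2 ratio of -0.36. KLF3 (ENSG00000109787, chromosome 4, 38664196 to 38701042, + strand), a repressor that recruits CtBP, had 5.30 and 5.55. KLF4 (ENSG00000136826, chromosome 9, 107484852 to 107490482, - strand), a reprogramming factor that slows the cell cycle in differentiating epithelia, had 3.87 and 3.71. The log2 ratios of KLF3 and KLF4 were 0.05 and -0.05, within 0.1 of 0 as for 4 members, and 21.5% of all genes lay that close.

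KLF9 (ENSG00000119138, chromosome 9, 70384597 to 70414624, - strand), a factor induced by glucocorticoid and thyroid hormone, had an FPKM of 1.86 in shNC and 0.652 in shY2-2. Its log2 ratio was -0.79, at percentile 4.39. The value depends on the pseudocount, with -1.38 at 0.1 and -0.28 at 5, while the FPKM ratio without a pseudocount was 0.350. KLF9 met the filter of 1 FPKM only through shNC, its higher library, and the filter favours a lower shY2-2 value in such a gene. Its percentile and its place in the next count are therefore no independent support for a fall. KLF9 and SOX4 were the members lower by more than 1.5-fold on the log2(FPKM + 1) scale, which held for 8.92% of all genes. No member was higher by more than 1.5-fold, which held for 5.38%.

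**Figure D2:**
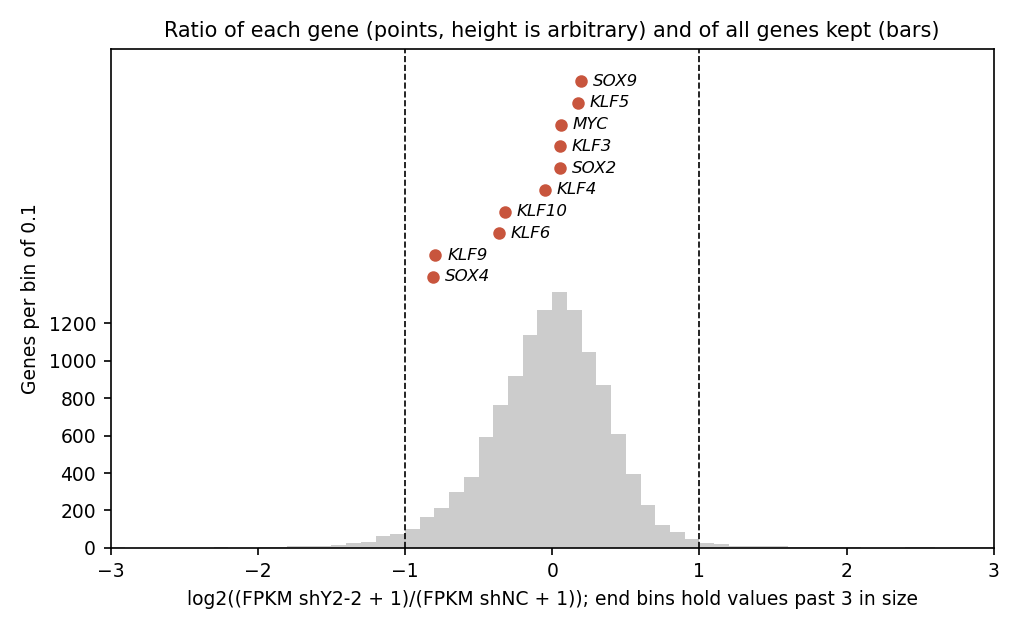
Log2 ratio of shY2-2 over shNC on the log2(FPKM + 1) scale for the 10 genes (points, whose height carries no value) above the number of genes per bin of 0.1 among the 12268 genes kept (bars). Dashed lines mark -1 and 1, and all 10 points lie between them, from -0.81 for SOX4 to 0.20 for SOX9.

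Order by level was similar but not the same in the libraries, and whether neighbours in it differ beyond their spread cannot be said from 1 library each. MYC ranked 3 and SOX9 ranked 8 in both, and the other 8 genes changed place, SOX4 from 5 to 7. The genes most like SOX4 over the 2 input libraries, by Euclidean distance of log2(FPKM + 1), were SLC7A7 (FPKM 6.67 and 3.53, distance 0.04), DOCK10 (6.65 and 3.43, 0.04) and ZBTB38 (6.87 and 3.34, 0.05). Exons of MYC, SOX4, KLF3 and KLF4 share between 168 and 357 nt with a lncRNA on the opposite strand. The libraries were made with a dUTP method, which marks strand, but whether the FPKM calculation used strand is not given in the sources used here, so fragments of these genes and of their antisense partners may not be separated. No member shares exon sequence with another gene on its own strand.

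Other genes of the same families lay on either side of 0. Of 3 other SOX genes kept, none passed 1 in size. SOX12, a SoxC relative of SOX4, was the highest, with an FPKM of 15.4 in shNC and 23.0 in shY2-2 and a log2 ratio of 0.55, and SOX7, an endothelial factor, the lowest (-0.20, FPKM 1.67 and 1.32). SOX7 shares exon sequence with PINX1 on the same strand. Of 11 other KLF and SP genes, none passed. They ran from SP3 (-0.73), a GC-box factor with an FPKM of 9.86 and 5.54, to KLF11 (0.71), a close relative of KLF10, with 2.10 and 4.08 and an antisense lncRNA over its exons. The medians of these lists were -0.17 and 0.13.

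Among 8 kept genes of the MYC network, 1 had a log2 ratio above 1. This was MXI1, a repressor that competes with MYC for MAX, with an FPKM of 1.29 in shNC and 4.69 in shY2-2 and a log2 ratio of 1.31. The shNC list held 2 peaks of MXI1 and the shY2-2 list 0, and 8.58% of the 12268 genes likewise had peaks in shNC only. Exons of MXI1 overlap an antisense lncRNA. MAX, the obligate partner, had the lowest ratio (-0.38, FPKM 9.72 and 7.23), and its exons overlap FNTB on the opposite strand. Of 22 kept genes widely described as MYC targets, 14 were above 0 and 8 below, with a median log2 ratio of 0.08. Only RCC1, the nucleotide exchange factor of Ran, passed 1, with an FPKM of 17.0 and 39.5 and a log2 ratio of 1.17. RCC1 had 6 peaks in either list. It shares 242 nt of exon with SNHG3 on the same strand, so its fragments may be assigned to either. PPAN, a ribosome biogenesis factor, was the lowest (-0.54, FPKM 10.0 and 6.62), and its exons are shared with the readthrough gene PPAN-P2RY11.

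The m6A peaks were then located on the genes. The shNC list held 18 peaks of the 10 genes among 31057 distinct peaks, and the shY2-2 list 17 among 27344. A peak was present for 9 of the 10 genes in shNC and for 10 in shY2-2, where the shares over the 12268 genes were 81.2% and 78.4%. At least 1 peak in both lists was found for 9 of the 10 genes, and for 72.7% of the 12268 genes. KLF9 had peaks in the shY2-2 list only, as did 5.7% of all genes. A more demanding count was the number of genes with a peak of each list on common exonic sequence. The overlap was of at least 1 bp on the same strand, where the strand of a peak was taken from its annotated gene. Such peaks were found for 5 of the 10 genes, MYC, SOX4, KLF4, KLF5 and KLF10, and for 64.5% of all genes. SOX2, SOX9, KLF3 and KLF6 thus carried a peak in each list but at separate positions.

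The label m6A-rich was set against the number of peaks. The members had 1.80 peaks per gene in shNC and 1.70 in shY2-2, and the 12268 genes had 2.27 and 1.94. At least 3 peaks in shNC were found for SOX4, KLF3, KLF4 and KLF5, that is 4 of 10 genes, where 39.1% of all genes had as many. At least 2 in shY2-2 were found for 5 of 10, SOX4, SOX9, KLF4, KLF5 and KLF9, beside 53.2% of all genes. By this measure, which was not matched for RNA level or transcript length, the members did not stand above the other genes. The median fold enrichment of member peaks, the authors' ratio of IP over input, was 2.24 in shNC and 2.60 in shY2-2, beside 2.17 and 2.26 for all peaks. How fast the transcripts decay was not measured in these files.

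**Figure D3:**
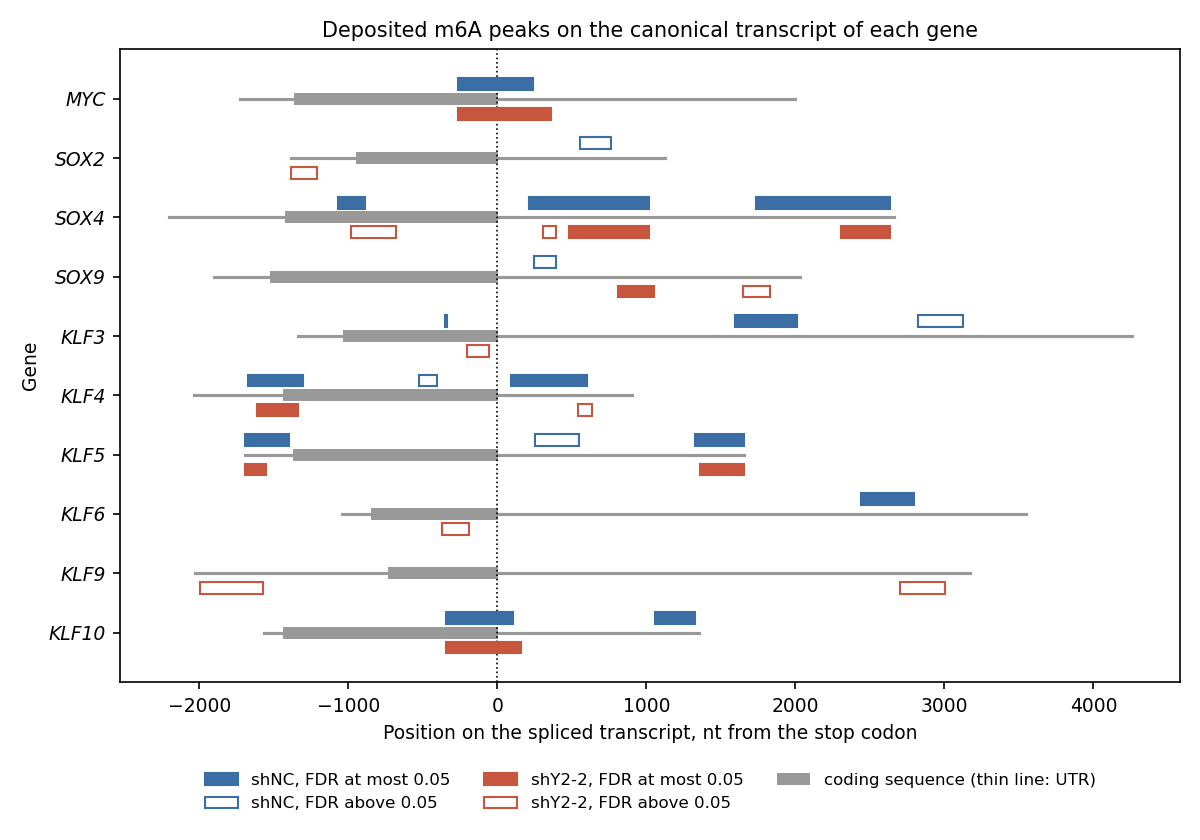
Deposited peaks of the shNC list (blue, above each line) and the shY2-2 list (red, below) on the spliced canonical transcript of each gene, in nt from the first base of the stop codon (dotted line). Thick grey marks coding sequence, filled bars an FDR of at most 0.05 and open bars a higher FDR. MYC and KLF10 have a peak across the stop codon in both lists, and peaks of SOX2, SOX9, KLF3 and KLF6 do not coincide.

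MYC had 1 peak in each list, and both crossed the stop codon. The shNC peak ran from 127740691 to 127741196 on chromosome 8 and covered the last 268 nt of the coding sequence, stop codon included, and 238 nt of the 3′-UTR. It had a fold enrichment of 2.87 and an FDR of 2.51e-81, smaller than that of 98.6% of the peaks of its list. The shY2-2 peak began at the same base, ran on to 127741315, and had a fold enrichment of 3.20 and an FDR of 1.00e-110. The fold enrichments lay at percentiles 68.8 and 69.9 of their lists, so MYC stood further out in FDR than in enrichment.

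KLF10 also had a peak across the stop codon in each list, but with a lower fold enrichment. Its stop codon peaks ran from 102650033 to 102651238 in shNC and from 102649974 to 102651238 in shY2-2, each in 2 exonic blocks with 350 nt of coding sequence. Fold enrichments were 1.77 (FDR 2.00e-14) and 1.84 (FDR 1.26e-16), at percentiles 31.0 and 33.4 of their lists. Another KLF10 peak, in the 3′-UTR 1056 to 1325 nt past the stop codon, was in the shNC list only (fold enrichment 2.20, FDR 0.00331).

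SOX4 had 3 peaks in shNC and 4 in shY2-2, and each of them met a peak of the other list. The strongest covered 807 nt of the 3′-UTR in shNC, from 214 to 1020 nt past the stop codon, with a fold enrichment of 5.65 and an FDR of 1.26e-18. In shY2-2 the same stretch held a peak of 538 nt with a fold enrichment of 6.86 (FDR 3.98e-16) and one of 90 nt with 1.73 (FDR 0.239). The site at 615 nt printed above lies under the stronger shY2-2 peak and the site at 388 nt under the weaker. The distal 3′-UTR peak was 896 nt long in shNC and 329 nt in shY2-2, with 2.26 (FDR 0.00389) and 2.40 (FDR 0.0407). A coding peak had 1.98 in shNC (FDR 0.0427) and 3.76 in shY2-2 (FDR 0.0851). SOX4 was also the gene with the lowest RNA ratio, and the fold enrichment is a ratio to the input of each library.

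KLF4 and KLF5 each had a pair at the 5′ end and a pair in the 3′-UTR. The 5′ peak of KLF4, over the start codon in both lists, had a fold enrichment of 10.7 in shNC (FDR 0.0132) and 2.60 in shY2-2 (FDR 0.0468). The 5′ peak of KLF5 had 5.72 in shNC (FDR 2.00e-07) and 2.15 in shY2-2 (FDR 0.0105). In both genes the 5′ peak was lower in shY2-2, with log2 differences of -2.04 and -1.41, at percentiles 1.06 and 3.25 of the 21726 overlapping pairs of peaks in the data. A SOX4 3′-UTR pair (5.65 and 1.73) had -1.71 at percentile 2.06, but its shNC peak covers 807 nt and its shY2-2 peak 90 nt. The same shNC peak also met the 538 nt shY2-2 peak with 6.86, so this pair does not show a drop of the whole peak. The blocks of the 5′ peaks of KLF4 and KLF5 were not the same in the lists. The KLF4 peak covered 630 nt in shNC and 360 nt in shY2-2, of which 260 and 80 nt lie off the canonical transcript. The KLF5 peak covered 331 and 540 nt, of which 37 and 396 nt lie off it. In the 3′-UTR, KLF5 had 1.69 in shNC (FDR 0.0288) and 1.68 in shY2-2 (FDR 0.00955) over 300 shared nt. The KLF4 3′-UTR peaks had 2.74 (FDR 6.31e-06) and 2.08 (FDR 0.166), with 61 nt in common.

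**Figure D4:**
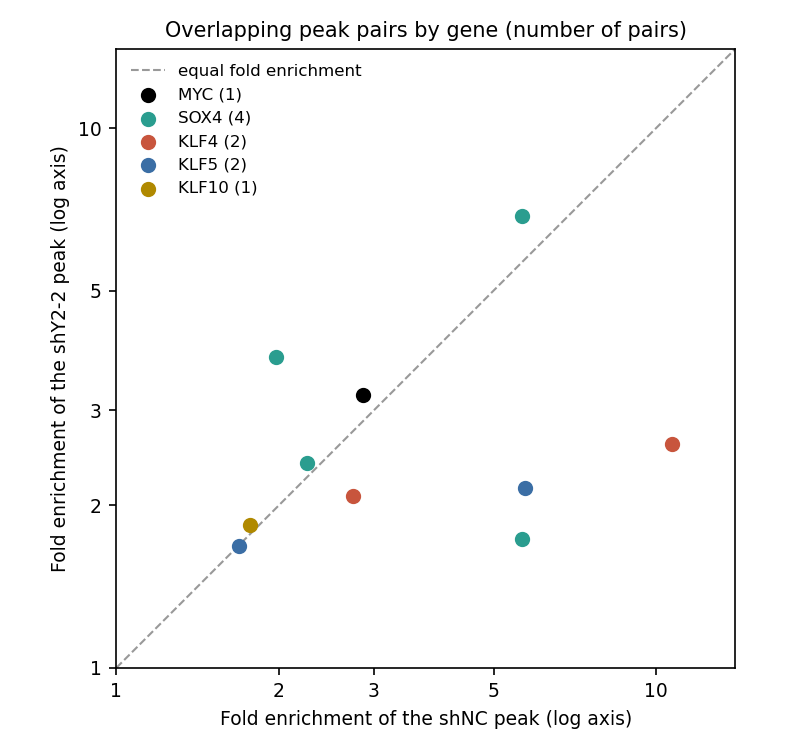
Fold enrichment of each of the 10 overlapping pairs of member peaks, shNC on the x axis and shY2-2 on the y axis, both on log axes. The dashed line marks equality. The pairs of MYC, KLF10, the KLF5 3′-UTR and the distal SOX4 peak lie near it. The 5′ peaks of KLF4 (10.7 and 2.60) and KLF5 (5.72 and 2.15) and a SOX4 3′-UTR pair (5.65 and 1.73) lie furthest below it. The SOX4 coding pair (1.98 and 3.76) lies furthest above it.

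Over the 10 pairs, the fold enrichment was higher in shY2-2 in 5 and lower in 5, where 42% of all 21726 pairs were higher, and the median log2 difference of all pairs was -0.08. Both lists were called on their own library pair, and a change in fold enrichment has no replicate check.

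Most member peaks that met no peak of the other list had an FDR above 0.05. The share over all such peaks was not computed, so whether this is particular to these genes cannot be said. SOX2 had a 3′-UTR peak in shNC (fold enrichment 8.39, FDR 0.112) and a 5′-UTR peak in shY2-2 (2.70, FDR 0.388), 1764 nt apart on the transcript. SOX9 had a 3′-UTR peak in shNC (3.05, FDR 0.221), and its nearest shY2-2 peak (4.16, FDR 0.0288) lay 416 nt further on, with another (3.47, FDR 0.207) beyond it. KLF6 had a distal 3′-UTR peak in shNC (2.21, FDR 0.00126) and a coding peak in shY2-2 (1.54, FDR 0.10), 2630 nt apart. KLF3 had a 3′-UTR peak in shNC (3.23, FDR 8.91e-05) that met no shY2-2 peak, and its only shY2-2 peak, from -206 to -57 nt relative to the stop codon, had 1.37 (FDR 0.194). The other shNC peaks of KLF3 had 1.99 (FDR 0.0776) and 1.78 (FDR 0.126). Both KLF9 peaks of the shY2-2 list had a fold enrichment of 8.09, with FDR 0.556 at the 5′ end and 0.603 in the 3′-UTR, in the library where the FPKM of KLF9 was 0.652.

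With an FDR of at most 0.05, 12 of 18 member peaks remained in shNC and 8 of 17 in shY2-2, where the shares over all peaks were 56.4% and 52.1%. The genes with a peak in both lists were then the 5 with overlapping peaks, and the share of all genes at this setting was not computed. By overlap, 9 of 18 shNC member peaks met a shY2-2 peak (55.9% over all shNC peaks), and 10 of 17 shY2-2 member peaks met a shNC peak (65.4%).

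Most member peaks held 3′-UTR sequence. On the GENCODE 44 canonical transcripts, 13 of 18 shNC peaks and 10 of 17 shY2-2 peaks held 3′-UTR sequence, beside 48.2% and 50.3% of all peaks in coding genes. Last-exon sequence was present in 14 and 13 of them, beside 53.8% and 56.1%. SOX2 and SOX4 have 1 exon, so every peak of theirs entered the last-exon count, also the 5′-UTR peak of SOX2 and the coding peaks of SOX4. Last exons had a median of 2715 nt in the members beside 1590 nt in all transcripts. The part of these lengths in the counts was not tested. The stretch within 100 nt of the stop codon was met by 3 peaks in each list, those of MYC, KLF10 and KLF4 in shNC and of MYC, KLF10 and KLF3 in shY2-2, and by 22% and 21.9% of all peaks.

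The transcripts themselves share a structure of few exons that the choice by symbol did not use. All 10 had fewer exons than the median of 9 over 10686 coding transcripts of genes kept, with a median of 3.5, and SOX2 and SOX4 have 1 exon. The longest exon was the last exon in all 10 and had a median of 2715 nt, beside 1644 nt for all transcripts. The 3′-UTR was longer than the median of 1287 nt in 8 of 10, from 899 nt in KLF4 to 4254 nt in KLF3.

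AU-rich elements, which bind decay factors and are typical of short-lived mRNAs, were counted as the pentamer ATTTA in the 3′-UTR, on the transcript strand and with overlapping matches counted. The density was above the median of all transcripts (1.68 per kb) in 9 of 10 members, the exception being SOX4 (1.5 per kb). Some were barely above it, with KLF6 (1.69 per kb) at percentile 50.4 and KLF3, KLF4 and KLF10 between 57.7 and 59.8. The genes were chosen as proposed short-lived, so this count is no independent check of that label. It was highest in SOX2 (4.46 per kb, 5 copies) and SOX9 (3.94 per kb, 8 copies), and MYC had 3.01 per kb in 6 copies. The longer form TATTTAT, which contains ATTTA, was present in 7 of 10 members and in 34.9% of all transcripts, and absent from KLF4, KLF9 and KLF10. Presence was not scaled to length, and the median 3′-UTR had 2011 nt in the members beside 1287 nt in all transcripts. The 3′-UTRs of the members were also richer in A and T, with a median of 64.0% beside 57.5%, which moves with the pentamer, and its part in the count was not tested. GGAC was not denser in the members, with a median of 3.28 per kb beside 3.68, and KLF10 had 3 copies in the whole transcript.

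**Figure D5:**
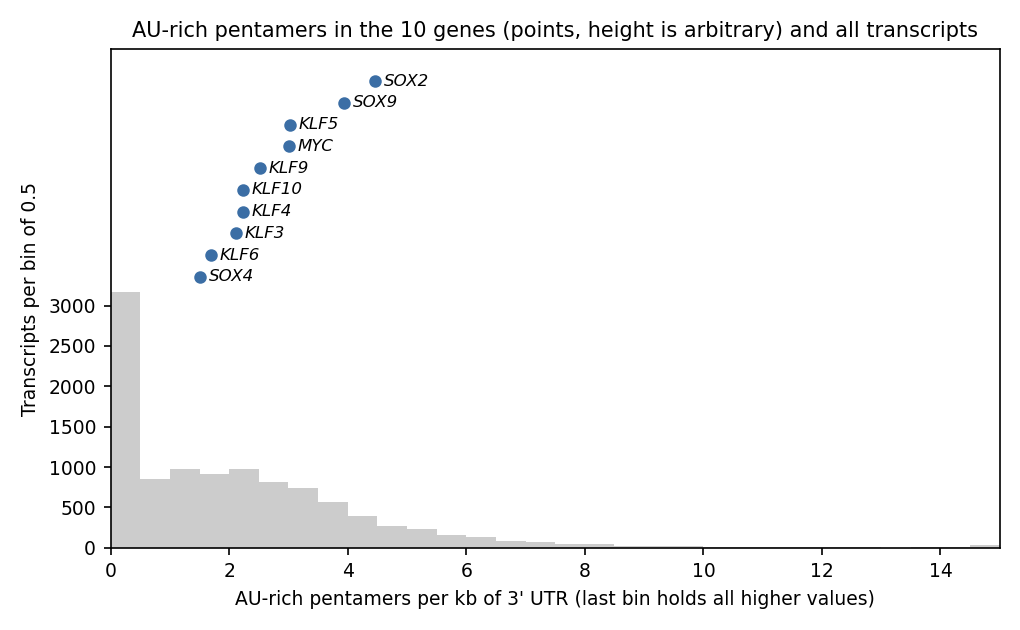
ATTTA per kb of 3′-UTR in the 10 genes (points, whose height carries no value) above the number of transcripts per bin of 0.5 among coding transcripts of genes kept (bars). SOX4 (1.5) is the lowest of the 10 and SOX2 (4.46) the highest.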

How the data were processed

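The members, the gene lists and the alternatives were chosen with earlier results of these data known. Reads of 4 libraries, 1 per group, were mapped by the authors to GRCh38 with HISAT2, and the deposited FPKM values were calculated with StringTie from the input libraries. Peaks were called by the authors with exomePeak on the IP against the input library of the same cells, without pooling, and annotated with ChIPseeker. The fold enrichment (a linear ratio), the p-value of each peak (at most 0.049) and the log10 score of its FDR are deposited values and were not recomputed. Versions of these tools are not given in the sources used here. The depth behind FPKM values and peaks is unknown, so no interval or detection limit could be given.

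Ratios were computed with a pseudocount of 1 over genes that had 1 FPKM or more in either input library. FPKM are not counts, so no count test was run. Repeated peak rows were counted once, which left 31057 of 31091 rows in shNC and 27344 of 27355 in shY2-2. Positions and sequences were taken from canonical transcripts of GENCODE release 44 and the hg38 genome. Of the 27939 table genes in that release, 27928 overlap their position there on the same strand. Members, YTHDF2, the highest and lowest gene of each of 4 other lists with any past the threshold, and the 3 genes nearest to SOX4 are named. NKX2-1 and SFTPB were not analysed here. Of the sequences under shared peaks, 1 is not reported here. Alternatives were other pseudocounts, FPKM filters, centring, a 1.5-fold threshold, stricter peak filters and another overlap rule. The steps were tested on simulated data. Python 3.11.15, NumPy 2.4.6, pandas 2.3.3, pysam 0.24.0 and matplotlib 3.10.9 were used.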

Additional observations from a re-analysis of the deposited data

How the results depend on the processing

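Of 57 recomputed values, 53 had been planned, and 4, those of the number of genes with an overlapping peak, were added after the data were seen. None of the 30 recomputed log2 ratios of single members changed sign. With a pseudocount of 0.1, KLF9 passed 1 in size, which made 1 member in place of 0 (7.47% of all genes), and at a threshold of 1.5-fold 2 members passed, SOX4 and KLF9 (14.3% of all genes). A pseudocount of 5, no FPKM filter, a filter of 5 FPKM, which left 6 members, and centring left the number at 0. With an FDR of at most 0.05, 5 genes in place of 9 had a peak in both lists, and 8 of 17 shY2-2 member peaks remained. With a fold enrichment of at least 2, 11 of 18 shNC member peaks remained, and 6 shY2-2 member peaks met a shNC peak in place of 10. With a fold enrichment of at least 4, 4 member peaks remained in each list, SOX4 alone had a peak in both lists and an overlapping peak, that is 1 gene, and 1 peak of each list met the other. The number of genes with an overlapping peak was 5 at an FDR of at most 0.05 and with an overlap of 50% of the shorter peak, and 4 at a fold enrichment of at least 2. Apart from the shares of peaks with an FDR of at most 0.05 given above, shares over all genes or peaks were not computed at these peak settings. Whether the members fell more or less than all genes cannot be said. No paired analysis was possible because each group has 1 library and the labels give no replicate numbers.

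With 1 library per group and 1 shRNA, the spread between cultures is unknown, and an effect of the shRNA cannot be told apart from a difference between the cultures. Depth per gene and per peak is unknown, which weighs most on SOX2 and KLF9.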
